A study of Homo sapiens with 12 samples.

Results

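Aminoacyl-tRNA synthetases, the enzymes that join each amino acid to its tRNA, were examined through the genes that encode them in TC71, a long-established cell line of Ewing sarcoma. Members were taken by gene symbol: 35 genes, 19 for enzymes of the cytosol and 16 for enzymes of mitochondria, whose symbols end in 2. A gene without that ending counts as cytosolic here, even where its enzyme may also serve mitochondria. Glycine (GARS1) and lysine (KARS1) have no member ending in 2. A probe counted with a detection p-value under 0.05 on 4 or more of the 12 arrays, and 33 of the 35 genes passed, 18 cytosolic and 15 mitochondrial, out of 11835 genes tested. All 33 were detected on all 12 arrays, so none passed through 1 group alone. CARS1, the cytosolic cysteine enzyme, was not analysed here because no probe was named for it, and the probe of WARS2, the mitochondrial tryptophan enzyme, was detected on 0 arrays.

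Total RNA was taken at 48 h from 3 groups of 4 cell samples, each run on 1 array: cells with a scrambled control (scramble), cells with a miR-130b mimic (mimic) and cells with an anti-miR against it. All groups shared the TC71 background, and no untreated cells were among the 12 samples. The labels give no dose or delivery method, the column code of the anti-miR samples is unexplained, and nothing states whether the 4 samples of a group came from separate cultures. The p-values given here thus capture only how far these samples spread, which may be technical.

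Each synthetase activates its amino acid with ATP and transfers it to the matching tRNA, and it supplies ribosomes with charged tRNA. The cytosol and the mitochondrion use mostly separate enzymes, both encoded in the nucleus, and in the cytosol several enzymes sit together in the multisynthetase complex. When uncharged tRNA builds up, the kinase GCN2 phosphorylates the initiation factor eIF2alpha and the transcription factor ATF4 is translated. ATF4 is known to activate amino acid synthesis and transport genes and many cytosolic synthetase genes, often through C/EBP-ATF response elements.

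The microRNA is shown because it is the agent that defines the groups. MicroRNAs lower target transcripts mainly by pairing of the seed, bases 2 to 8, which is in capitals (RefSeq, GRCh38.p14, chr22:21653354-21653375, plus strand).
hsa-miR-130b-3p: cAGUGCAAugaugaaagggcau
The seed AGUGCAA is shared with miR-301a-3p, miR-301b-3p, miR-3666, miR-4295 and miR-454-3p. The labels do not say which arm the mimic carries.

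The raw intensity of an array had a median of 85.5 to 88.8 with scramble and 84.5 to 87.6 with the mimic, and it was lower, 72 to 82.5, with the anti-miR. The target in the study's title, ARHGAP1, a GTPase activating protein, fell by 0.58 ± 0.14 on the log2 scale with the mimic (limma adjusted p = 0.015). Of 10 Ewing sarcoma markers, 8 were detected, CD99, NKX2-2, STEAP1 and GLI1 among them. NPY1R was detected on 0 arrays and NR0B1 had no named probe. The summed linear intensity of the 8 was 31810 to 34530 on scramble, 35180 to 37580 on mimic and 30780 to 34910 on anti-miR arrays. CCND1 had the highest mean of the 8 (log2 13.66 on scramble and 14.05 on mimic arrays), so it weighs most in this sum. Of these markers CCND1 was called with the mimic (0.39 ± 0.10, limma adjusted p = 0.0181) and the other 7 were not, CD99 at -0.15 and KDSR at -0.30 among them. Among markers of other cells, PTPRC, CD3E, HBB, CDH1, KRT19, PDGFRA and all 4 endothelial markers were detected on 0 arrays. CD14, a blood cell marker, was detected on 9 arrays and was tested (0.07 with the mimic, limma adjusted p = 0.791). COL1A2, LYZ and KRT18 were detected on 3, 2 and 1 arrays and were not tested. The sum of 6 detected fibroblast markers was 1180 to 1442 on scramble, 1176 to 1583 on mimic and 1087 to 1252 on anti-miR arrays, and that of 2 epithelial markers was 94.08 to 106.1, 112.8 to 165.4 and 81.13 to 117.6. Within these sums the genes moved apart with the mimic. COL1A1 (0.76, limma adjusted p = 0.00777), THY1 (0.62, limma adjusted p = 0.00427) and KRT8 (0.87, limma adjusted p = 0.00838) rose and FAP fell (-0.45, limma adjusted p = 0.0492), while DCN gave -0.27 and EPCAM -0.18. Their part in the results below was not tested.

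Changes below are differences of mean log2 normalized intensity ± the moderated standard error from limma, 4 arrays a group. Adjusted p-values are limma's over all 11835 genes, and a gene was called at an adjusted p under 0.05. Values of different genes are on different probes, so only changes, not levels, are set beside each other.

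With the mimic, 1 synthetase gene rose and 2 fell out of 33 tested. MARS1, the cytosolic methionine enzyme, rose, and QARS1 and HARS1, the cytosolic glutamine and histidine enzymes, fell. All 3 are cytosolic (3 of 18), and 0 of 15 mitochondrial genes were called in limma's test. An unadjusted limma p under 0.05 was seen for 4 of the 15, beside 3829 of all 11835 genes. In the same comparison 16.2% of all genes were called, 881 higher (7.44%) and 1038 lower (8.77%). The share was 9.09% of the 33 synthetase genes and 16.7% of the cytosolic ones, so the cytosolic share was close to that of all genes and the whole family's was below it. The median change was 0.10 over the cytosolic genes, of which 12 lay above 0, and -0.03 over the mitochondrial genes, of which 7 lay above 0, beside -0.00 over all genes. In bulk RNA, less RNA per cell cannot be told apart from fewer cells that carry it.

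**Figure D1:**
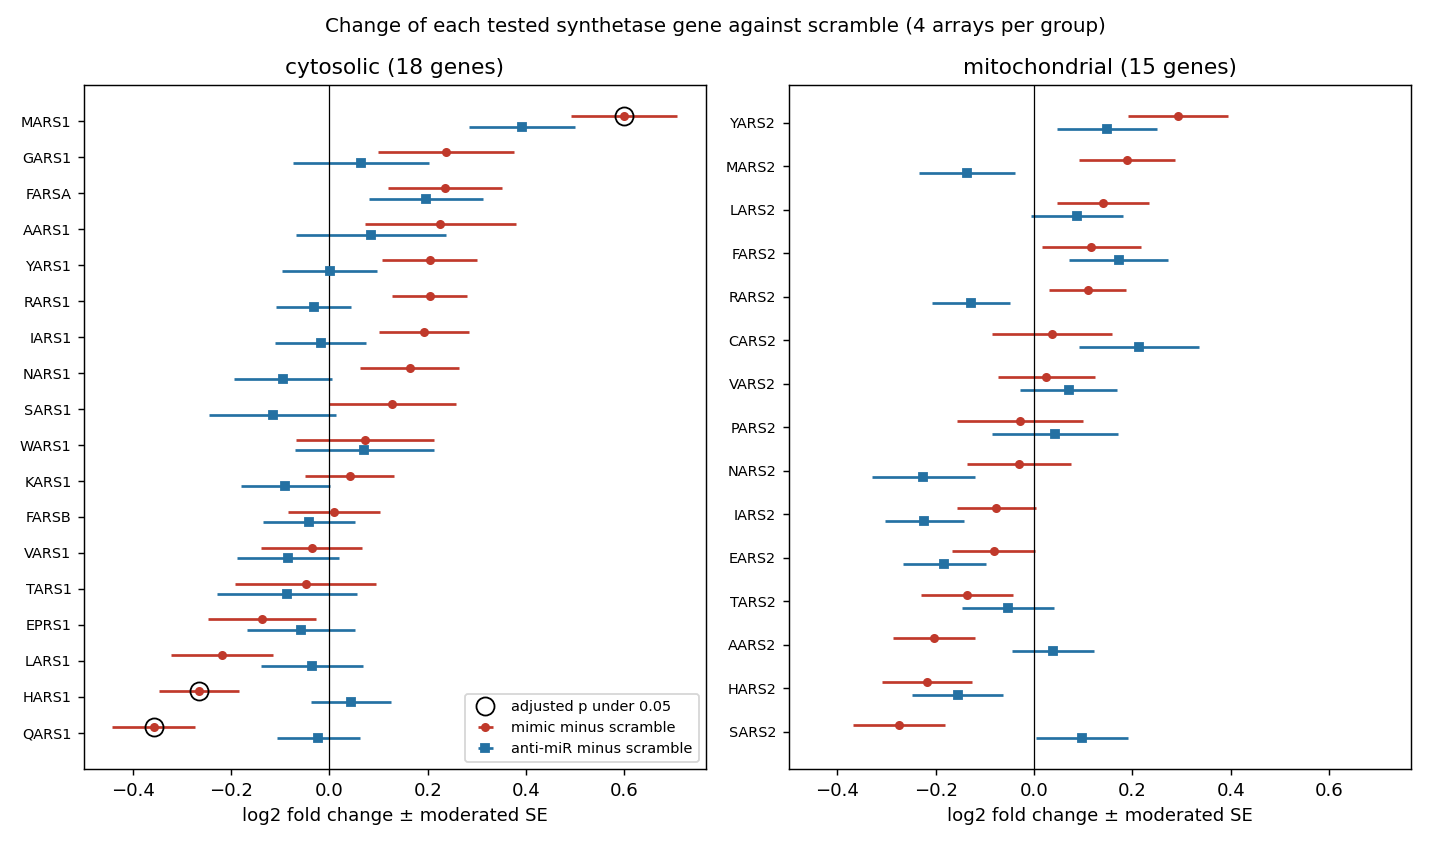
Log2 fold change against scramble ± moderated standard error (horizontal axis) of each tested synthetase gene, cytosolic in one panel and mitochondrial in the other, with circles for the mimic, squares for the anti-miR and a ring where the adjusted p was under 0.05 with the mimic. MARS1 lies farthest above 0 (0.60) and QARS1 farthest below (-0.36) with the mimic, and no mitochondrial gene is ringed.

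MARS1 encodes the methionine enzyme of the cytosol, a member of the multisynthetase complex that charges both initiator and elongator tRNA. Its probe read 10.79, 10.58, 10.45 and 10.69 log2 units on the scramble arrays and 11.35, 11.09, 11.18 and 11.28 on the mimic arrays. Every mimic array lay above every scramble array. The mean rose from 10.63 ± 0.15 to 11.22 ± 0.11 (SD, n = 4), a change of 0.60 ± 0.11 or 1.51-fold (limma adjusted p = 0.00378). On the anti-miR arrays MARS1 read 10.90, 11.28, 11.03 and 10.85, all above the scramble arrays as well, and the groups with mimic and anti-miR overlapped. The difference of anti-miR from scramble was 0.39 ± 0.11 and did not pass (limma adjusted p = 0.123), and that of mimic from anti-miR was 0.21 ± 0.11 (limma adjusted p = 0.208). MARS1 was thus higher than scramble in 8 of 8 arrays with either reagent, and both comparisons rest on the same 4 scramble arrays. MARS2, its mitochondrial counterpart, gave 0.19 ± 0.10 with the mimic (limma adjusted p = 0.199).

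QARS1 encodes the glutamine enzyme, also a member of the complex. Its probe read 12.50, 12.34, 12.39 and 12.36 on the scramble arrays, 12.01, 12.17, 12.02 and 11.96 on the mimic arrays and 12.40, 12.33, 12.25 and 12.51 on the anti-miR arrays. The mimic arrays lay below all 8 others, while scramble and anti-miR arrays overlapped. QARS1 fell by 0.36 ± 0.08 with the mimic, to 0.781 of the scramble level (limma adjusted p = 0.0127), and differed by -0.02 with the anti-miR (limma adjusted p = 0.917). No separate mitochondrial glutamine enzyme is among the members. Human mitochondria make glutaminyl-tRNA by amidation, and GATC, a subunit of the amidotransferase that does so, rose by 0.40 ± 0.12 (limma adjusted p = 0.0397, 7.80 ± 0.25 to 8.20 ± 0.16, SD, n = 4). GATC gave 0.43 ± 0.12 with the anti-miR (limma adjusted p = 0.132), where QARS1 stayed near scramble, and -0.03 for mimic minus anti-miR. The other subunits of the enzyme were not called with the mimic, GATB at -0.03 and QRSL1 at 0.16. The call on GATC held in 6 of 12 fits that left out 1 array, with limma adjusted p up to 0.116.

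HARS1 encodes the histidine enzyme, which works outside the complex. Its probe read 10.05, 10.11, 10.10 and 10.03 on the scramble arrays, 9.73, 9.78, 9.98 and 9.74 on the mimic arrays and 10.18, 10.01, 10.11 and 10.18 on the anti-miR arrays. The mimic arrays lay below all others, with mimic array 3 closest to them. HARS1 fell by 0.27 ± 0.08, to 0.832 of the scramble level (limma adjusted p = 0.0394). The call held in 4 of the 12 fits that left out 1 array. It was lost without any one of the scramble arrays, without mimic array 1, 2 or 4 and without anti-miR array 1, with changes from -0.32 to -0.24 and limma adjusted p up to 0.103.

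HARS2, the mitochondrial histidine enzyme, is the neighbour of HARS1 on chromosome 5. It read 8.90, 8.89, 8.87 and 8.73 on the scramble arrays, 8.44, 8.77, 8.80 and 8.51 on the mimic arrays and 8.66, 8.72, 8.66 and 8.72 on the anti-miR arrays. Mimic arrays 1 and 4 were low and arrays 2 and 3 overlapped with scramble, while all anti-miR arrays lay just below the lowest scramble array. The differences were -0.22 ± 0.09 with the mimic (limma adjusted p = 0.117) and -0.16 with the anti-miR (limma adjusted p = 0.406), so neither passed.

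**Figure D2:**
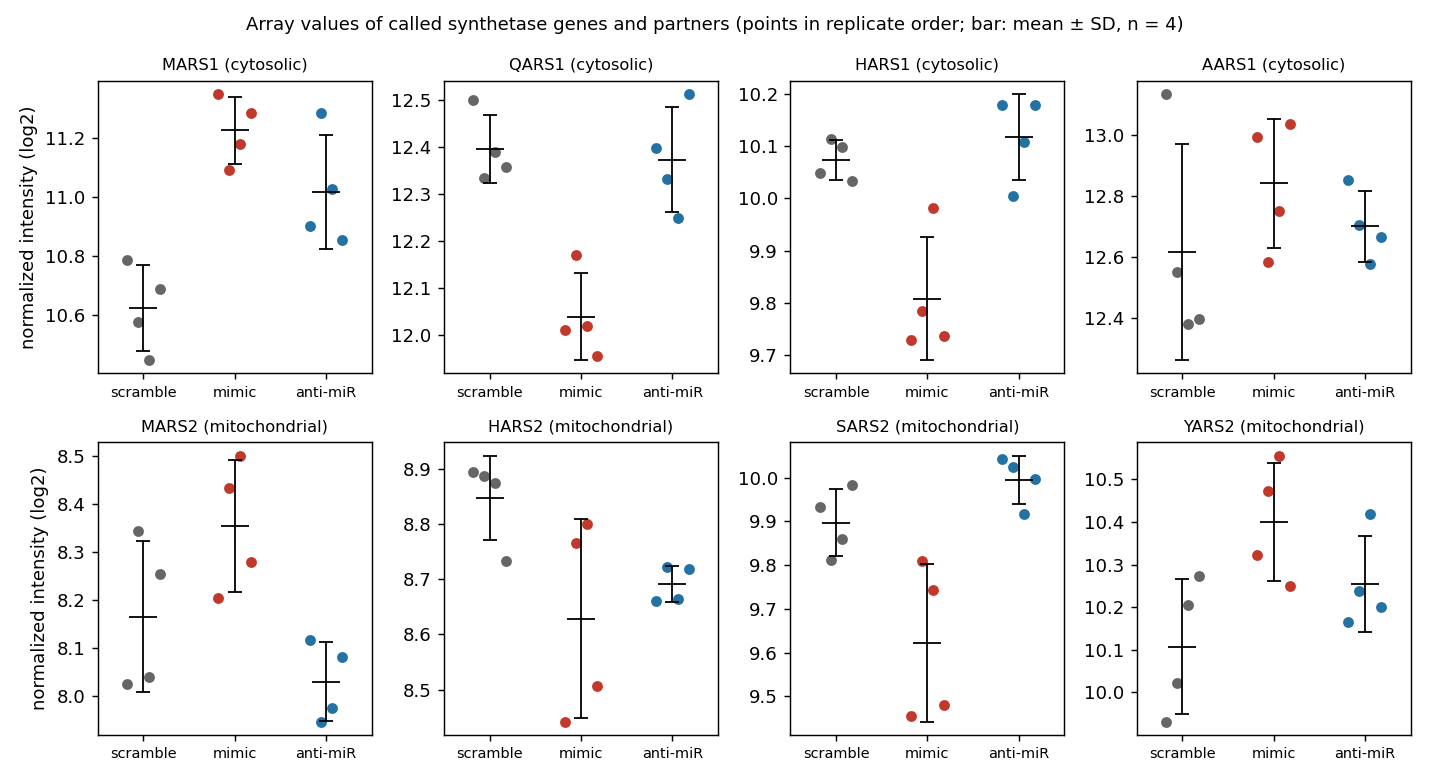
Log2 normalized intensity (vertical axis) on each of the 4 arrays per group, with the mean ± SD as bars. Shown are the synthetase genes called in any comparison, the counterpart HARS2, and AARS1 and YARS2, which were not called with all arrays. All mimic arrays lie above scramble for MARS1 (11.09 to 11.35 against 10.45 to 10.79) and below it for QARS1 (11.96 to 12.17 against 12.34 to 12.50).

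Promoter sequence was set beside these changes because ATF4 is a known regulator of this gene family. RefSeq (GRCh38.p14) gave a window from 250 bases before to 50 after the start for 30 of the 35 members. The C/EBP-ATF core TGATGNAA was searched on both strands, its reverse being TTNCATCA. It was found in 6 of 16 cytosolic promoters (37.5%) and in 1 of 14 mitochondrial ones (7.14%). Among the 9465 genes tested that have a window, 1.66% held it, and 3.67% of all 27305 promoters did. In the list of genes linked to ATF4 that is used below, 4 of 22 promoters held it (18.2%), so most of them lack this core in the window. The cytosolic matches were in AARS1, CARS1, IARS1, MARS1, NARS1 and TARS1, and the mitochondrial one in YARS2. The matched letters were TTGCATCA in 5 of the 6 cytosolic promoters and TGATGCAA, its reverse, in NARS1. Shown are the gene that rose (MARS1), the gene with the widest spread (AARS1) and both genes that fell, each 5′ to 3′ on the gene's own strand with a core match in capitals. The windows are MARS1 chr12:57487818-57488117 (plus strand), AARS1 chr16:70289457-70289756 (minus), QARS1 chr3:49104708-49105007 (minus) and HARS1 chr5:140691321-140691620 (minus).
MARS1: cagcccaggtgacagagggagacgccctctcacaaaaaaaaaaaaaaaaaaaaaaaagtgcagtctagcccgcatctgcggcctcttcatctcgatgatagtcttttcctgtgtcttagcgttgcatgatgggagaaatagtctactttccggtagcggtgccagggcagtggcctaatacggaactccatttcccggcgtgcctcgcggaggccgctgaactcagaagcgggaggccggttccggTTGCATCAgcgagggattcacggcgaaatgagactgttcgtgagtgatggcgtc
AARS1: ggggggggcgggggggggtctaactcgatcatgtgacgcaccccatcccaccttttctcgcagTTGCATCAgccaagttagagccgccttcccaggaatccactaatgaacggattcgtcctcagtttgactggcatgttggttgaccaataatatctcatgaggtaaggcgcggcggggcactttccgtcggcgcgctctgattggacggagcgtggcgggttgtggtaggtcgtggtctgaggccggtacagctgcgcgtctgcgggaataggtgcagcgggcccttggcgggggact
QARS1: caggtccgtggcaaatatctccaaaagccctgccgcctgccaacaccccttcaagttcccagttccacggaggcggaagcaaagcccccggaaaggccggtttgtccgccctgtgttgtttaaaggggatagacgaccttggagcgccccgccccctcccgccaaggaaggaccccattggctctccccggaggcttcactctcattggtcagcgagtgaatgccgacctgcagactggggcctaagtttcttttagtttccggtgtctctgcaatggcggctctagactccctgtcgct
HARS1: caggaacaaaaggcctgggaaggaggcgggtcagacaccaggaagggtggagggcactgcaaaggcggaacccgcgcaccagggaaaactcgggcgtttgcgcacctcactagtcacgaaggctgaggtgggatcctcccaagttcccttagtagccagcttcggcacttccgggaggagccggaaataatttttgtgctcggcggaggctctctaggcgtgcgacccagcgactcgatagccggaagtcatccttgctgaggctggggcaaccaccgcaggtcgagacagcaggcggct
Counted from the transcription start, the match begins at position -4 in MARS1 and at position -187 in AARS1. The windows of QARS1 and HARS1 hold no match. The HARS1 window shares 184 bases with that of HARS2, which is read from the opposite strand. Of the cytosolic genes tested, the 5 with a match had a median change of 0.19 with the mimic (range -0.05 to 0.60, 4 above 0), and the 10 without had 0.06 (range -0.36 to 0.24, 7 above 0). These shares and medians were not tested, and a match describes letters and does not show binding.

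The other 15 cytosolic genes were not called with the mimic, with changes from -0.22 to 0.24 and adjusted p from 0.08 upwards. The largest positive values were GARS1 (glycine) at 0.24 ± 0.14, FARSA (a subunit of the phenylalanine enzyme) at 0.23 ± 0.12 and AARS1 (alanine) at 0.23 ± 0.15. RARS1 (arginine, in the complex) gave 0.20 ± 0.08 (limma adjusted p = 0.08) from a narrower spread. It read 11.06, 11.01, 10.85 and 10.89 on scramble and 11.18, 11.09, 11.15 and 11.19 on mimic arrays, which did not overlap. Such separation, mimic above scramble, was seen for 2 of 18 cytosolic and 0 of 15 mitochondrial genes, beside 10.4% of all genes. Separation below scramble was seen for 2 cytosolic and 2 mitochondrial genes, beside 10.6% of all genes. LARS1 (leucine) and EPRS1 (the fused glutamate and proline enzyme), both in the complex, gave -0.22 ± 0.10 and -0.14 ± 0.11.

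The genes were also grouped by catalytic fold and by the complex. Class I and class II enzymes differ in the fold that binds ATP, and EPRS1, which joins one of each, was left out of the classes. The cytosolic median with the mimic was 0.13 for 8 class I genes (1 rose, 1 fell) and 0.13 for 9 class II genes (0 rose, 1 fell), beside the 16.2% of all genes called, 7.44% higher and 8.77% lower. Groups of this size hold too few genes for their counts to be read against that share. The 7 tested members of the complex had a median of 0.04 (1 rose, 1 fell) and the 11 others 0.13 (0 rose, 1 fell). Among mitochondrial genes the median was 0.07 for 8 class I genes, 6 above 0, and -0.14 for 7 class II genes, 1 above 0, with none called in either class.

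Mitochondrial synthetase genes ranged from -0.27 to 0.29 with the mimic. SARS2, the serine enzyme, read 9.93, 9.81, 9.86 and 9.98 on scramble arrays, 9.46, 9.81, 9.74 and 9.48 on mimic arrays and 9.92 to 10.04 on the anti-miR arrays. The 2 mimic arrays 1 and 4 were clearly low, and mimic array 2 lay only just under the lowest scramble array. SARS2 differed by -0.27 ± 0.09 from scramble (limma adjusted p = 0.0577).

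YARS2, the tyrosine enzyme, lay at the other end of the range. It read 9.93, 10.02, 10.20 and 10.27 on scramble, 10.32, 10.47, 10.56 and 10.25 on mimic and 10.16, 10.24, 10.42 and 10.20 on anti-miR arrays. Mimic array 4 overlapped with scramble, and the difference was 0.29 ± 0.10 (limma adjusted p = 0.0624). Both SARS2 and YARS2 passed under 3 of 9 other processing settings and under none of the rest. In those 3, limma adjusted p ran from 0.0288 to 0.0421 for SARS2 and from 0.0280 to 0.0456 for YARS2. AARS2, the alanine enzyme, read 8.57, 8.51, 8.57 and 8.50 on scramble and 8.33, 8.38, 8.39 and 8.24 on mimic arrays. These did not overlap, and AARS2 differed by -0.20 ± 0.08 (limma adjusted p = 0.109).

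Cytosolic genes varied together among the scramble arrays. Scramble array 1 held the highest of the 4 scramble values for 14 of 18 cytosolic genes and for 3 of 15 mitochondrial genes. The median SD among scramble arrays was 0.181 for cytosolic genes, from 0.0384 (HARS1) to 0.354 (AARS1), and 0.0991 for mitochondrial genes. On mimic arrays the median SDs were 0.113 and 0.121, and on anti-miR arrays 0.107 and 0.122. These counts and SDs were not computed over all genes, so they are not shown to be particular to cytosolic synthetase genes. AARS1 read 13.13, 12.55, 12.38 and 12.40 on scramble and 12.99, 12.59, 12.75 and 13.04 on mimic arrays, so the highest value of all belonged to scramble array 1.

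The deviation of each array from the scramble mean, taken as the median over genes, ran the same way in a list of genes linked to ATF4. Over cytosolic synthetase genes it was 0.17, 0.04, -0.10 and -0.16 on scramble arrays 1 to 4. Over 26 genes of the ATF4 list it was 0.44, 0.01, -0.23 and -0.18, and over mitochondrial synthetase genes -0.04, -0.01, -0.01 and 0.07. On the mimic arrays the ATF4 list lay between 0.17 and 0.28 and the cytosolic genes between -0.03 and 0.15. Scramble array 1 was thus higher than every mimic array in both of these groups of genes. Over all genes the median deviation of that array was 0.01.

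**Figure D3:**
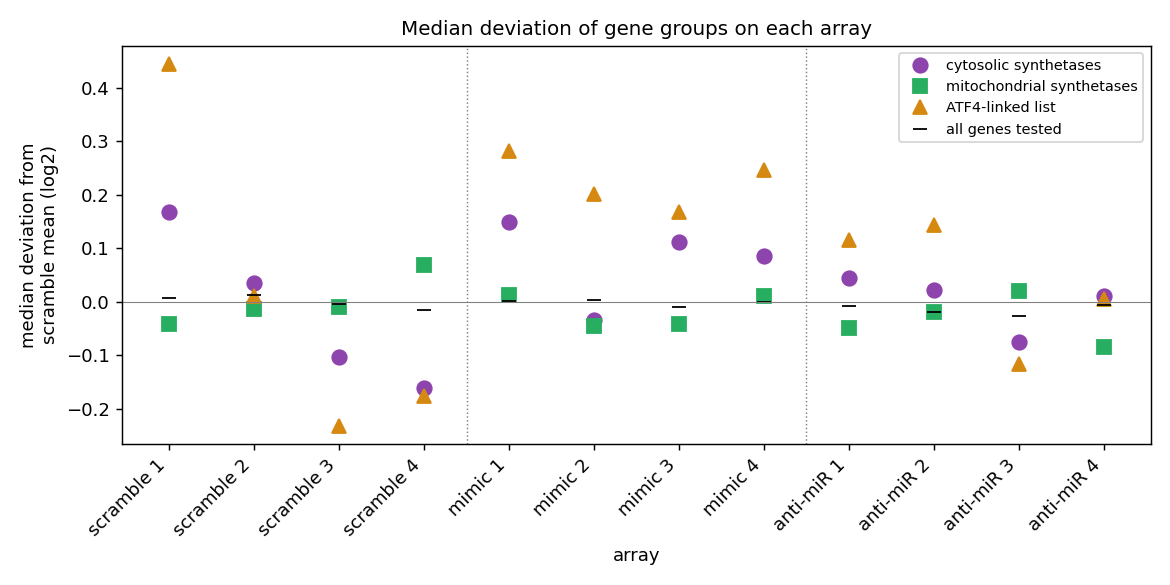
Median deviation from the scramble mean (log2, vertical axis) of cytosolic synthetase genes, mitochondrial synthetase genes and the ATF4-linked genes on each of the 12 arrays (horizontal axis). Scramble array 1 stands highest for the ATF4-linked genes (0.44) and the cytosolic genes (0.17), and the mitochondrial genes stay within -0.08 and 0.07.

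**Figure D4:**
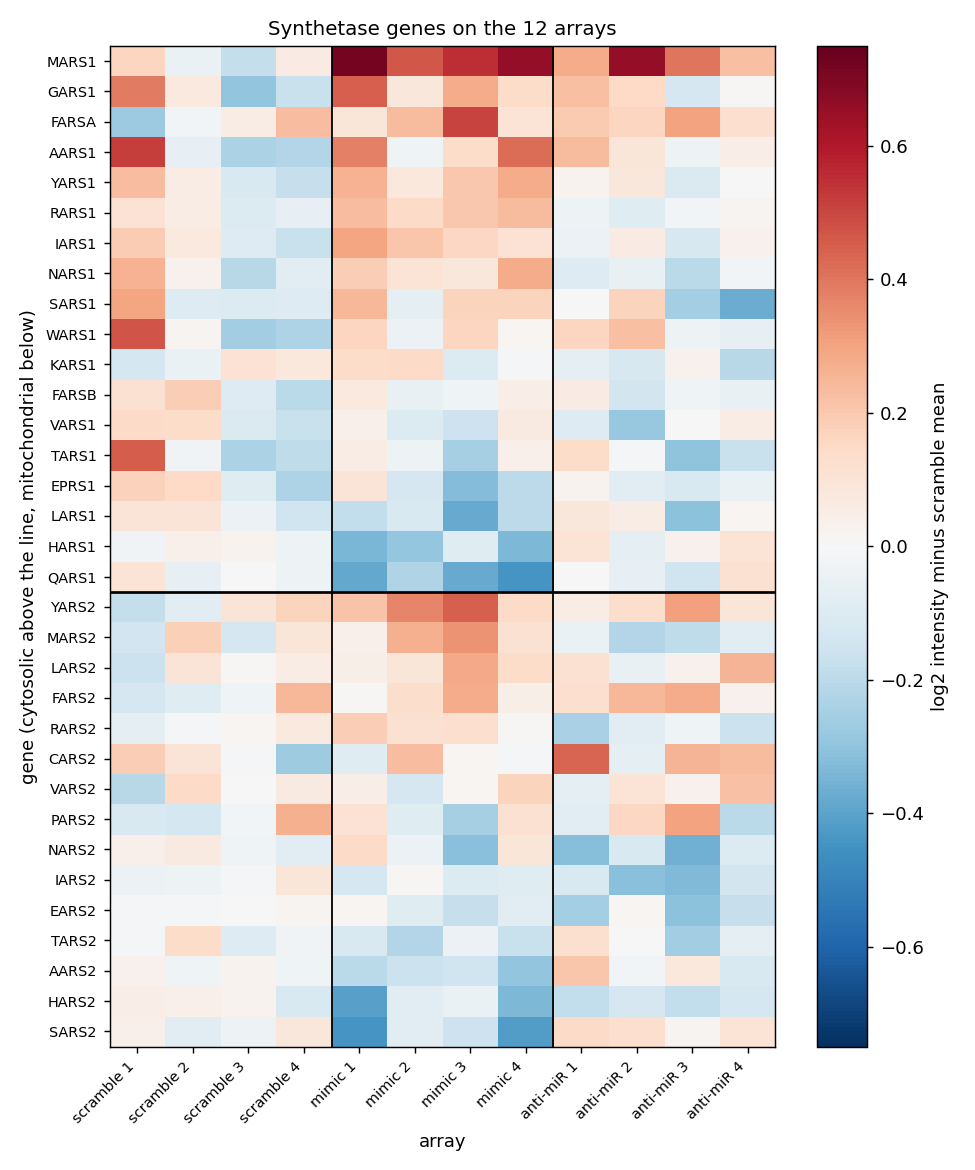
Log2 intensity minus the scramble mean (colour) of each tested synthetase gene (rows, cytosolic above the line and mitochondrial below) on the 12 arrays (columns). Scramble array 1 is the highest scramble array in 14 of the 18 cytosolic genes, and MARS1 is raised on all 8 arrays with mimic or anti-miR.

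Results that rest on scramble array 1 were therefore computed without it. Leaving out the array that is highest in a set of genes raises their difference from scramble by construction. AARS1 then rose by 0.40 ± 0.12 with the mimic (limma adjusted p = 0.0497), MARS1 by 0.65 ± 0.11 (limma adjusted p = 0.00747), and QARS1 fell by 0.32 ± 0.09 (limma adjusted p = 0.0394). HARS1 was no longer called (-0.27, limma adjusted p = 0.0698). GARS1 gave 0.37 (limma adjusted p = 0.0749), YARS1, the tyrosine enzyme, 0.28 (limma adjusted p = 0.0674) and RARS1 0.24 (limma adjusted p = 0.0701). IARS1, the isoleucine enzyme, gave 0.25 (limma adjusted p = 0.0912) and NARS1, the asparagine enzyme, 0.25 (limma adjusted p = 0.0944). The cytosolic median was 0.18, with 3 of 18 genes called (16.7%), and 0 of 15 mitochondrial genes were called, while 9.2% of all genes were. The 4 scramble arrays carry the same label, and no label or header sets the first apart from the others.

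The ATF4-linked list holds 28 genes for amino acid synthesis, transport and stress signalling, of which 26 were tested. With all arrays 1 rose with the mimic and 0 fell, 3.85% called, which is below the 16.2% of all genes. In the list 22 lay above 0, with a median of 0.26, beside 5828 of all 11835 genes. SLC3A2, the heavy chain of amino acid exchangers, was the called gene and rose from 9.98 ± 0.26 to 10.47 ± 0.18 (SD, n = 4), by 0.48 ± 0.12 (limma adjusted p = 0.0179). ATF4 itself gave 0.25 ± 0.12 (limma adjusted p = 0.165). Without scramble array 1, 11 of the 26 were called (42.3%, beside 9.2% of all genes in that fit) and the median was 0.36. This is not independent support for a rise, since the array left out is the highest in that list. Among those 11, CHAC1, a glutathione-degrading enzyme, gave 1.49 (limma adjusted p = 0.0108), JDP2, a basic leucine zipper protein, 0.92 (limma adjusted p = 0.00747), SESN2, a leucine sensor, 0.84 (limma adjusted p = 0.0458), and ATF5, a transcription factor, 0.73 (limma adjusted p = 0.0285). Leaving out other arrays moved the count down to 0, which was reached without scramble array 3 or mimic array 3. With the anti-miR 0 of the 26 were called by limma, with a median of 0.03. An unadjusted limma p under 0.05 was seen for 2 of the 26, beside 1958 of all 11835 genes.

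With the anti-miR no synthetase gene was called by limma, and 4 of 33 had an unadjusted p under 0.05, beside 1958 of all 11835 genes. Only 15 of all genes were called in that comparison (0.127%), 8 higher (0.0676%) and 7 lower (0.0591%). The cytosolic median was -0.03, with 7 of 18 genes above 0, and the mitochondrial median 0.04, with 8 of 15 above 0, beside -0.02 over all genes. MARS1 had the largest difference (0.39) and was the 1 cytosolic gene whose anti-miR arrays all lay above scramble, beside 3.5% of all genes. Below scramble, 0 cytosolic and 3 mitochondrial genes were separated (HARS2, IARS2 and NARS2), beside 5.44% of all genes.

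IARS2, the mitochondrial isoleucine enzyme, read 11.13, 11.13, 11.16 and 11.26 on scramble and 11.05, 10.85, 10.84 and 11.03 on anti-miR arrays, a difference of -0.22 ± 0.08 (limma adjusted p = 0.205). NARS2, the asparagine enzyme, differed by -0.23 ± 0.11 (limma adjusted p = 0.301). CARS2, the cysteine enzyme, had the highest mitochondrial value at 0.21 ± 0.12 (limma adjusted p = 0.392). The anti-miR arrays were also the ones with the lowest raw medians, and the part of that in these values was not tested.

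Mimic and anti-miR were also compared with each other. In that comparison 1 synthetase gene was higher with the mimic and 3 were lower, 12.1% of 33, while 15% of all genes were called (7.82% higher and 7.19% lower). The cytosolic median was 0.09, with 14 of 18 genes above 0, and the mitochondrial median -0.05, with 7 of 15 above 0. Over all genes the median was 0.01, with 6170 of 11835 above 0. QARS1 (-0.33 ± 0.08, limma adjusted p = 0.0182) and HARS1 (-0.31 ± 0.08, limma adjusted p = 0.0222) were lower, as was SARS2 (-0.37 ± 0.09, limma adjusted p = 0.0175). MARS2, the mitochondrial methionine enzyme, was 1.25-fold higher with the mimic (0.33 ± 0.10, limma adjusted p = 0.0382). The MARS2 call was lost in 7 of 12 fits that left out 1 array (limma adjusted p up to 0.0933), that of HARS1 without mimic 1 or 4 or anti-miR 1 or 4 (up to 0.0692), that of QARS1 without mimic 1 or 4 or anti-miR 4 (up to 0.0582), and that of SARS2 without mimic 1 or 4 (up to 0.061). MARS2 read 8.20, 8.43, 8.50 and 8.28 on mimic and 8.12, 7.95, 7.97 and 8.08 on anti-miR arrays, without overlap. Scramble arrays, at 8.03, 8.34, 8.04 and 8.25, overlapped with both. A second MARS2 probe, detected on 8 arrays, read 0.01 in this comparison. RARS1 (0.24 ± 0.08, limma adjusted p = 0.0505) and RARS2, the mitochondrial arginine enzyme (0.24 ± 0.08, limma adjusted p = 0.0555), lay just outside the threshold. RARS1 passed in 6 of 9 other processing settings (limma adjusted p from 0.0286 to 0.0484) and RARS2 in 3 (0.0408 to 0.0461). Mimic arrays lay wholly above anti-miR arrays for 3 cytosolic and 2 mitochondrial genes, beside 10.9% of all genes, and wholly below for 2 and 2, beside 9.1%. The comparisons of mimic and of anti-miR with scramble share the scramble arrays, which by itself makes their values run alike. Their values thus stand side by side here, and no correlation between them was computed.

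Cytosolic and mitochondrial genes for the same amino acid were set against each other in 15 pairs over 14 amino acids. The cytosolic change exceeded the mitochondrial one in 8 pairs with the mimic and in 8 with the anti-miR. With the mimic the gap was widest for alanine (AARS1 0.43 above AARS2), methionine (MARS1 0.41 above MARS2) and serine (SARS1 0.40 above SARS2). Leucine ran the other way, with LARS1 at -0.22, LARS2 at 0.14 and a gap of -0.36. For histidine both genes lay below 0 (-0.27 and -0.22), and for tyrosine both lay above it (0.20 and 0.29). An exact two-sided permutation test of the within-array gap, 4 arrays against 4, cannot go below p = 0.0286. It was added after the data were seen and run on 30 comparisons. Leucine with the mimic and methionine with the anti-miR reached that smallest value, and their gaps did not overlap with those on scramble arrays (exact adjusted p = 0.429 over the 30). With this few arrays no single pair could pass that adjustment whatever its size, so the adjusted values say nothing on whether the other gaps differed.

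**Figure D5:**
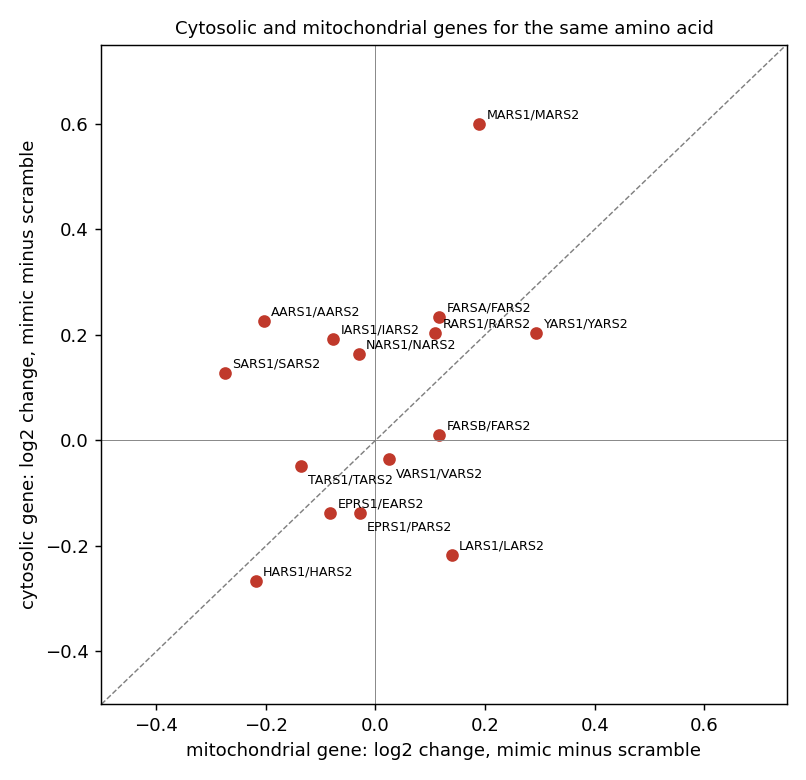
Log2 change with the mimic of each cytosolic synthetase gene (vertical axis) against that of the mitochondrial gene for the same amino acid (horizontal axis), 15 pairs. Methionine lies highest (0.60 against 0.19), leucine lies below 0 for the cytosolic gene and above it for the mitochondrial gene, and histidine lies below 0 on both axes.

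Genes of the surrounding pathways were counted by fixed lists. Of 9 other tested genes of tRNA charging, export and amidotransfer, 1 rose with the mimic (GATC), with a median of 0.11. That is 11.1% called, beside 16.2% of all genes (7.44% higher). In the same list XPOT, the tRNA exporter, gave 0.40 ± 0.13 (limma adjusted p = 0.0551). Of 8 cytosolic elongation and release genes 0 were called by limma, 2 at an unadjusted p under 0.05, with a median of -0.01. Of 8 kinases of eIF2alpha and partners of GCN2, 0 were called with the mimic by limma, 2 at an unadjusted p under 0.05. Both of these unadjusted counts stand beside 3829 of all 11835 genes. Against the anti-miR, EIF2S1, which encodes eIF2alpha, was higher with the mimic (0.38 ± 0.10, limma adjusted p = 0.022). In the ATF4 list 23 of 26 genes lay above 0 in that comparison, with a median of 0.17. Over all genes 6170 of 11835 did, with a median of 0.01. In the list 3 genes were called, all higher than with the anti-miR (11.5%), beside 15% of all genes called and 7.82% higher. The list's called share was thus near that of all genes. The 3 called genes were DDIT3, a stress transcription factor (0.76 ± 0.20, limma adjusted p = 0.0227), DDIT4, an inhibitor of mTORC1 (0.52 ± 0.15, limma adjusted p = 0.0347), and PPP1R15A, which directs eIF2alpha dephosphorylation (0.45 ± 0.14, limma adjusted p = 0.0486). Of the 12 fits that left out 1 array, 9 kept DDIT3, 6 DDIT4, 3 PPP1R15A and 8 EIF2S1 past the threshold. Of the 3 scaffold genes of the multisynthetase complex 0 were tested.

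Mitochondrial translation factors work with the ribosomes that use the charged tRNA of the mitochondrial synthetases. Of 8 tested, 1 rose and 3 fell with the mimic, with a median of -0.05. That is 50% called, beside 16.2% of all genes (7.44% higher and 8.77% lower). A list of 8 holds too few genes for its count to be read against that share. MRRF, the ribosome recycling factor, fell from 8.24 ± 0.13 to 7.66 ± 0.40 (SD, n = 4), by 0.59 ± 0.16 (limma adjusted p = 0.0213). MTRF1, a release factor, fell by 0.41 ± 0.10 (limma adjusted p = 0.0176), and MTIF2, the initiation factor, by 0.30 ± 0.09 (limma adjusted p = 0.0454). MTRF1L, another release factor, rose by 0.28 ± 0.08 (limma adjusted p = 0.0288). Leaving out 1 array kept the call in 9 of 12 fits for MRRF, 8 for MTRF1, 6 for MTRF1L and 3 for MTIF2, with limma adjusted p up to 0.0675, 0.0547, 0.0748 and 0.126. With the mean of its probes in place of the brightest, MRRF gave -0.16 (limma adjusted p = 0.425). Against the anti-miR MRRF gave -0.90 ± 0.16 (limma adjusted p = 0.00295), and -0.41 with the mean of its probes (limma adjusted p = 0.0461). With the anti-miR 0 of the 8 were called by limma against scramble, 1 at an unadjusted p under 0.05, beside 1958 of all 11835 genes.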

How the data were processed

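Trizol extraction, column clean-up and amplification to biotinylated cRNA for Illumina arrays preceded the measurement, per the labels' protocols. The scanner software and its settings are not given in the sources used here. Each of 47322 probes has an average signal intensity and a detection p-value on each of 12 arrays in the authors' unnormalized table, per the file headers. The authors' deposited normalized intensity table, with a median of 12 over all its values and 159270 values below 0, served as an alternative after a floor of 16 and log2. Its method is not stated.

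Raw intensity was corrected by limma's normexp from detection p-values (offset 16), then quantile normalized, and log2 values were taken, with limma 3.58.1 in R 4.3.3. Probes detected (p under 0.05) on at least 4 of 12 arrays were kept, 20768 in all. Of all probes, 30113 had 1 gene name, 8 several and 17201 none, and 30074 were updated to current symbols by gene identifier. The brightest kept probe stood for each gene, 11835 genes, 3112 of them with several probes. A second probe of WARS1 read 0.22 with the mimic against 0.07 for the brightest. The platform table assigns the EARS2 probe to a non-coding transcript.

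Sample titles gave each group, and table columns were matched through the sample descriptions. Limma fitted 1 mean per group to all 12 arrays, with Benjamini-Hochberg adjustment within each contrast. On simulated data for mimic minus scramble (11835 genes) it recovered 54% of 100 genes changed by 0.5 and 88% of 100 changed by 1, with 6 false calls among 148. The simulated noise was independent between genes, and far fewer genes were changed than the 1919 called here. Changes below 0.5, as for every synthetase gene with the mimic except MARS1, were not simulated. These shares thus do not give the power for the synthetase genes. The number of arrays limits the precision. Arrays of a group correlated at 0.99 to 0.994 and no pair was identical.

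All members detected are named or covered by range, with array values for called members and their counterparts and for others the text discusses, which were chosen after their values were seen. Members and lists were chosen with earlier results of these data known, so lists carry counts and medians and no test. Alternatives covered background, scaling, filter, probe choice, the arrays fitted, a replicate block and leaving out each array. Sequences are from RefSeq (GRCh38.p14).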

Additional observations from a re-analysis of the deposited data

Results flagged for a closer look

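In 99 sets of 4 arrays (33 genes in 3 groups), 2 held an array whose gap to the nearest other array, divided by the range of the set, was above Dixon's critical value for 4 values. Chance alone gives about 1 in 20 such sets. SARS1, the cytosolic serine enzyme, read 11.28 on scramble array 1 and 10.88 to 10.89 on the other scramble arrays (ratio 0.975). HARS2 read 8.73 on scramble array 4 and 8.87 to 8.90 on the others (ratio 0.871).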

How the results depend on the processing

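Of the values for single synthetase genes, none changed sign past the threshold. MARS1 and QARS1 stayed called with the mimic in all 12 fits that left out 1 array and in all 9 other settings (MARS1 0.54 to 0.65, QARS1 -0.40 to -0.32). Against the anti-miR QARS1 stayed called in 9 of 12 and 9 of 9, SARS2 in 10 and 8, HARS1 in 8 and 8 and MARS2 in 5 and 6. HARS1 with the mimic was lost under median scaling, with only the 8 arrays compared and with the replicate block. The mitochondrial count with the mimic was 2 without background correction, with an offset of 50 and with probes detected on all 12 arrays. Under median scaling the mitochondrial medians were -0.0835 with the mimic and -0.0207 with the anti-miR, 500 genes rose and 944 fell with the mimic (881 and 1038 as reported), and against the anti-miR 1 cytosolic and 0 mitochondrial genes were called. The mitochondrial count against the anti-miR was 1 with the mean of probes. All genes called with the anti-miR numbered 36 without background correction, 30 with an offset of 50, 0 under median scaling, 6 with no filter and 0 with only 8 arrays. Leaving out 1 array gave 1089 to 2072 genes called with the mimic (1089 without scramble 1, 1176 without mimic 4, 1210 without mimic 3), 0 to 31 with the anti-miR (31 without anti-miR 2) and 877 to 1848 for mimic against anti-miR (877 without mimic 1, 957 without mimic 4). In the same order, cytosolic counts were 2 to 3, 0 to 0 and 0 to 3, mitochondrial counts 0 to 1, 0 to 0 and 0 to 2, cytosolic medians 0.07 to 0.18, -0.06 to 0.02 and 0.08 to 0.13, and mitochondrial medians -0.0716 to 0.0435, -0.0188 to 0.0382 and -0.0453 to 0.0152. The ATF4-linked count with the mimic ran from 0 to 11. The cause was not tested. Replicate numbers did not pair the arrays (correlations -0.224 to 0.227, 2 of 12 arrays closest to their own number). With the replicate block 1797 genes were called with the mimic, 2 cytosolic and 0 mitochondrial, 2 genes with the anti-miR, and 1590 for mimic against anti-miR, 2 cytosolic and 1 mitochondrial. A slide block was not run, as no slide is given.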
